A study of Homo sapiens with 4 samples.

Results

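The genes described here build the vesicles that carry proteins between the endoplasmic reticulum and the Golgi apparatus. They are 45 genes, chosen by their function with earlier results of these data known. They comprise 14 of the COPII coat and its assembly, 9 of the COPI coat, 18 transmembrane cargo receptors and their partners, and the GTPase ARF4 with 3 SNARE proteins. Of these, 43 were measured among the 19775 genes on the array, each read by its brightest probe set annotated to that gene alone. No filter on low values was applied. TMED7 was left out because its probe sets are shared with a readthrough transcript, and for KDELR2 no probe set was used.

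RNA was measured in AGS, a human gastric adenocarcinoma cell line, on 4 arrays, 1 per sample. The control group (n = 2) was AGS with wild-type PRMT6, and the knockout group (n = 2) was AGS in which PRMT6, an arginine methyltransferase of histone H3, was disrupted with lentiviral Cas9. Per the labels, the knockout cells were infected with lentiCRISPR v2 carrying a single guide, selected with puromycin and cloned by limiting dilution. The labels do not say which clone each knockout array came from, or whether the control cells received a vector or were cloned. Both groups grew in RPMI1640 with fetal bovine serum. Nothing says that the 2 samples of a group came from separate cultures, so p-values measure the spread between these samples, which may be technical. The guide sequence is shown because it defines the knockout, and its position in the gene was not analysed here.
PRMT6 guide: gacggtactggacgtgggcg

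Secretory proteins leave the endoplasmic reticulum in COPII vesicles. The exchange factor PREB loads the GTPase SAR1 with GTP, SAR1 recruits the inner coat of SEC23 and SEC24, and the outer cage of SEC13 and SEC31 bends the membrane; SEC16 marks the exit site and SEC24 picks the cargo. COPI, a coat of 7 kinds of subunit recruited by ARF GTPases, works in the other direction and returns escaped proteins and receptors from the Golgi. Cargo receptors such as LMAN1, SURF4, the TMED proteins and the KDEL receptors link soluble cargo to these coats. Genes of this machinery are known to be induced when secretory load or unfolded protein stress rises.

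PRMT6 itself was measured at 8.03 and 8.11 in control and at 7.79 and 7.63 in knockout arrays, as log2 intensity. It fell by 0.36 (SE 0.09, adjusted p = 0.043, limma), but did not pass when any single array was removed (adjusted p 0.10 to 0.23). The call was also lost with the replicate number as a block (adjusted p = 0.076), under median scaling, which sets the arrays to equal medians (0.065), with probe sets specific to 1 gene preferred (0.052), or with all probe sets fitted in place of 1 per gene (0.085). Of the 6 epithelial markers all were at 9.32 or more on average over the 4 arrays; KRT8 rose by 0.49, KRT19 by 0.61 and CDH17 by 0.32, CLDN4 fell by 0.46, and EPCAM and KRT18 did not pass. The 4 endothelial markers averaged 2.55 to 5.95. Of 3 measured leukocyte markers PTPRC reached at most 3.42 and CD3E at most 5.61 on any array, while LYZ, which gastric epithelium also makes, was between 11.30 and 12.88. Of 6 fibroblast markers 4 rose, among them COL1A1 (8.55 and 8.60 in control, 10.18 and 10.09 in knockout arrays). The other risers, COL3A1, LUM and FAP, were dim, with mean levels of 3.29, 3.07 and 2.93 over the 4 arrays. DCN and PDGFRB, which did not pass, lay between 4.51 and 5.11 on every array. The part of these markers in the results below was not tested. In bulk RNA a change in the mix of cells and a change per cell cannot be told apart. Among all genes, 11.5% fell and 12.4% rose at an adjusted p below 0.05 in limma (Benjamini-Hochberg adjustment across the 19775 genes).

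Vesicle transport transcripts were lower in the knockout cells. Of the 43 measured genes 21 fell and 0 rose, which is 48.8% against the 11.5% of all genes that fell. The set was chosen with earlier results of these data known, so this comparison is a description. At an unadjusted p below 0.05 in limma, 26 of the 43 were lower and 1, TMED1, was higher. Of all 19775 genes 3325 were lower and 3565 higher at that threshold. Counts by class below are to be read beside these figures for all genes. The median difference of the 43 genes, knockout minus control, was -0.34 on the log2 scale, where the median of all genes was -0.01. The size was mostly under 2-fold: only SEC24D, a cargo-selecting subunit of the COPII coat, and BET1, a SNARE of vesicle fusion, fell by 2-fold or more. Both knockout arrays lay below both control arrays in 34 of the 43 genes (79.1%), against 29.1% of all genes. These genes are bright, and calls are more frequent among bright genes, so the comparison was repeated among genes with a mean log2 level of 8 or more: 20 of the 38 members in that range fell (52.6%), against 20.7% of 5573 genes, whose median difference was 0.05. The 43 measured genes lie on 17 chromosomes, and the 21 that fell lie on 13, with at most 3 on any one. Whether chromosome position bears on the falls was not tested.

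**Figure D1:**
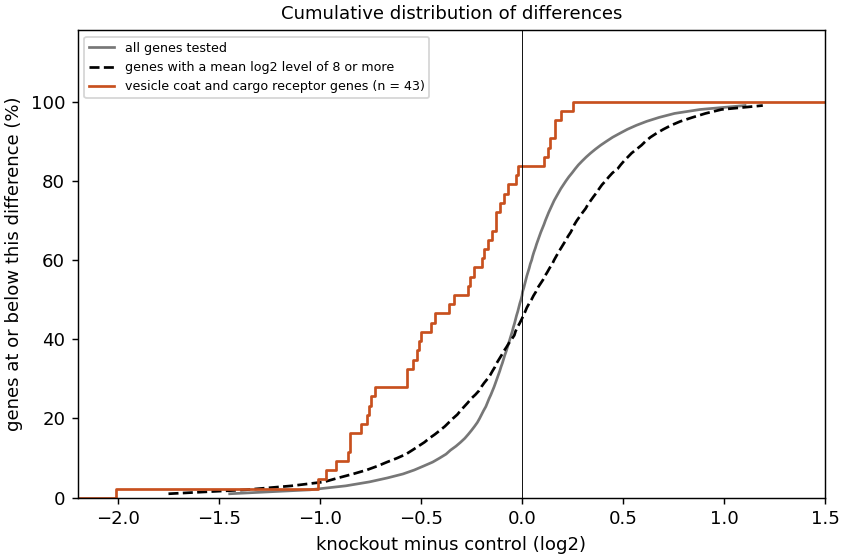
Share of genes (y axis, %) whose knockout minus control difference (x axis, log2) is at or below each value, for the 43 vesicle transport genes, all 19775 genes, and genes with a mean log2 level of 8 or more. The curve of the vesicle transport genes lies to the left of the others from about -1 upwards, with medians of -0.34, -0.01 and 0.05.

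Fewer members were called when any single array was left out, most of all a knockout array. Calls over all genes also became fewer, again most with a knockout array left out. In the fits without a knockout array, the share of members that fell was close to that of all genes. The excess of falls among the members was therefore not seen in those fits. Without control 1, 17 members fell, with PREB, ARCN1, ARF4 and SEC23A no longer called, and without control 2, 14 fell, with SEC22B, SEC23B and TMED2 lost as well. With a knockout array left out, hardly any member was still called, where the lone knockout array is assumed to vary like the controls. SEC24D differed by -2.28 without knockout 1 and by -1.74 without knockout 2. All 21 differences remained negative in each of these fits, and the members' median lay between -0.30 and -0.33. As an alternative, the arrays were set to equal means of 12 reference genes, of which 6 rose on the deposited scale. The median of all genes then moved from -0.01 to -0.31 and the members' median to -0.64. Under this scaling 36 of the 43 members fell and 0 rose, also at an unadjusted p below 0.05 in limma. Over all 19775 genes, 9495 fell and 1112 rose at an adjusted p below 0.05 in limma. The 7 members with a positive difference on the deposited scale were all negative under reference gene scaling. Under that scaling 10.5% of all calls were rises, against 51.9% on the deposited scale.

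**Figure D2:**
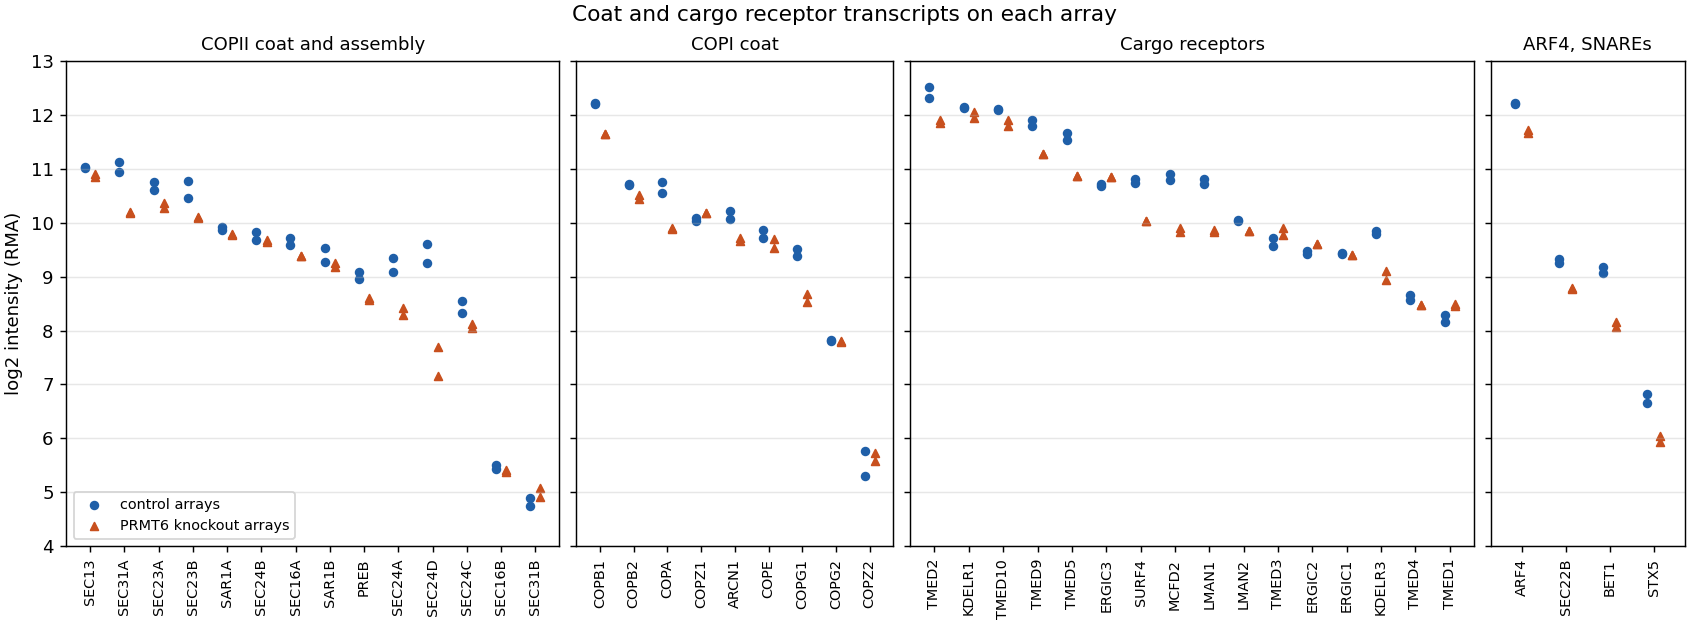
Log2 intensity (y axis) of each measured gene on the 2 control arrays (circles) and the 2 PRMT6 knockout arrays (triangles), by class and ordered by mean level. The largest gap is that of SEC24D, at 9.25 and 9.61 in control and 7.69 and 7.15 in knockout arrays.

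In the COPII coat, 6 of 14 genes fell, 0 rose and 13 of the 14 differences were negative (median -0.31; 8 lower and 0 higher at an unadjusted p below 0.05 in limma). The cargo-binding SEC24 subunits went apart in size. SEC24D stood at 9.25 and 9.61 in control arrays and at 7.69 and 7.15 in knockout arrays. The 2 groups did not overlap, although the knockout arrays differed from each other by more than the controls did. SEC24D fell by 2.01 (SE 0.21, 95% confidence interval -2.55 to -1.47, adjusted p = 0.0035), or 4.02-fold. SEC24A was at 9.08 and 9.35 in control and at 8.42 and 8.29 in knockout arrays, and fell by 0.86 (SE 0.12, adjusted p = 0.0069). Its close relative SEC24B (9.68 and 9.83 against 9.64 and 9.68) differed by -0.09 (95% confidence interval -0.32 to 0.13), and SEC24C by -0.34 (adjusted p = 0.066, limma); neither passed the test. SEC24A and SEC24B form one subfamily of these adaptors and SEC24C and SEC24D the other, so each subfamily held 1 gene that fell and 1 that did not pass. Whether the paralogs differ from each other was not tested.

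Their partners in the inner coat are the SEC23 subunits, which activate the GTPase of SAR1. SEC23B was at 10.45 and 10.78 in control and at 10.10 and 10.08 in knockout arrays, and fell by 0.52 (SE 0.13, adjusted p = 0.037; 0.069 with all probe sets fitted). SEC23A fell by 0.36 (SE 0.09, adjusted p = 0.044), the weakest call among the members: it was lost with the replicate block (adjusted p = 0.079), under median scaling (0.063), when gene-specific probe sets (0.053) or all probe sets (0.086) were fitted, and without any single array (0.070 to 0.24). In both genes the knockout arrays were below the control arrays. In the outer cage SEC31A was at 11.12 and 10.95 in control and at 10.20 and 10.18 in knockout arrays, falling by 0.85 (SE 0.09, adjusted p = 0.0036). Its cage partner SEC13, which also serves in the nuclear pore, differed by -0.15 (95% confidence interval -0.34 to 0.04). SEC31B differed by 0.16 at a level of 4.91, below the median gene's 5.97, where it is not known whether the signal exceeded background.

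At the start of assembly, PREB, the membrane-bound exchange factor of SAR1, fell by 0.43 (SE 0.09, adjusted p = 0.020, limma). The SAR1 GTPases it loads did not pass the test: SAR1A differed by -0.11 (95% confidence interval -0.31 to 0.08) and SAR1B by -0.19 (-0.48 to 0.10). Other probe sets of SAR1A gave 0.29 and 0.34, so its direction depended on the probe set. The exit site scaffold SEC16A differed by -0.27 (adjusted p = 0.081), and SEC16B, with a mean level of 5.43, by -0.07.

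**Figure D3:**
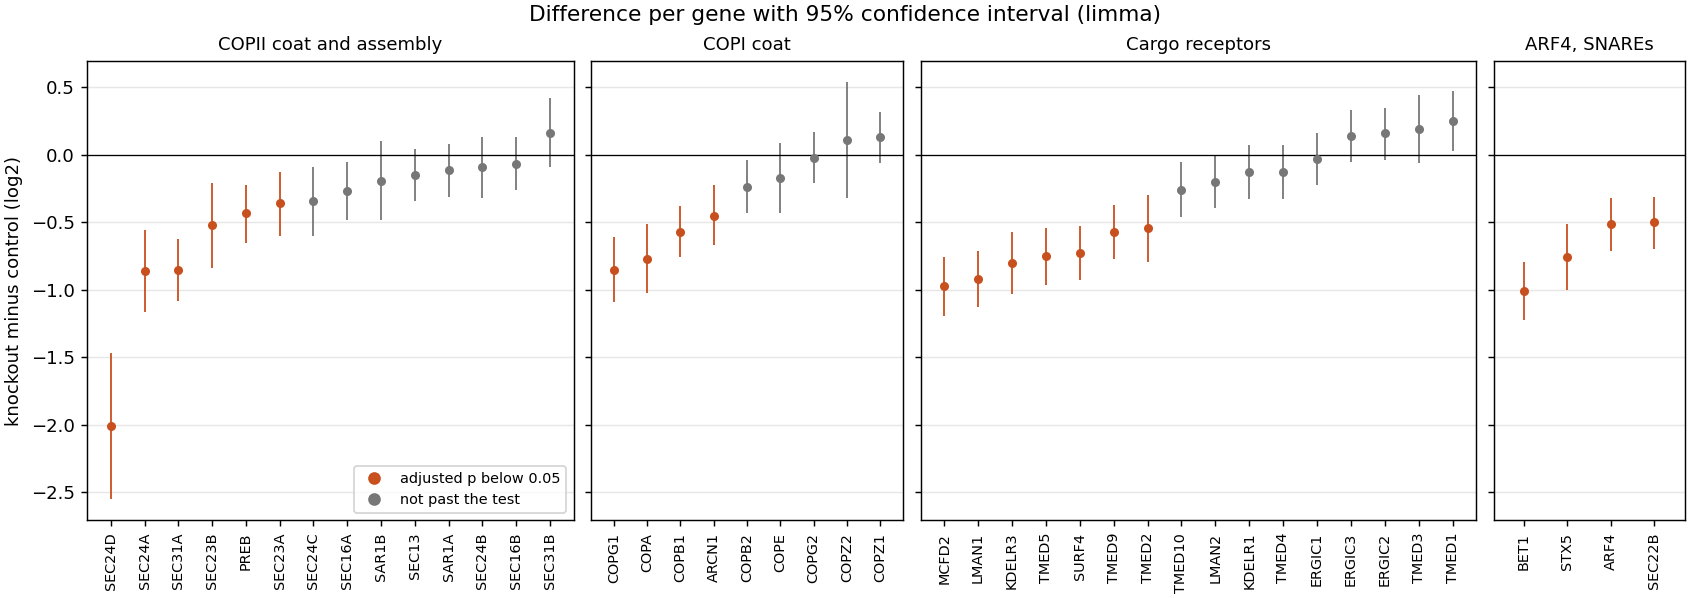
Knockout minus control difference (y axis, log2) of each measured gene with its 95% confidence interval from limma, by class. Orange points passed an adjusted p below 0.05; all 21 of them are below 0, and the 7 genes with a positive difference did not pass.

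In the COPI coat, 4 of 9 genes fell and 0 rose (median -0.24; 5 lower and 0 higher at an unadjusted p below 0.05 in limma). The 4 were COPG1, COPA, COPB1 and ARCN1, the gamma, alpha, beta and delta subunits. COPG1 was at 9.51 and 9.38 in control and at 8.52 and 8.67 in knockout arrays, and fell by 0.85 (SE 0.10, adjusted p = 0.0040). COPA, at 10.76 and 10.55 against 9.90 and 9.88, fell by 0.77 (SE 0.10, adjusted p = 0.0060), a call that ended when its dim probe sets (mean levels 4.31 and 3.01) were averaged in. COPA forms the outer part of the coat with COPB2 and COPE, and COPG1, COPB1 and ARCN1 belong to the part next to the membrane. COPB1 was at 12.21 and 12.22 in control and at 11.64 and 11.65 in knockout arrays, so that the gap between the groups was far wider than the spread within either; it fell by 0.57 (SE 0.07, adjusted p = 0.0060). ARCN1, at 10.22 and 10.07 against 9.67 and 9.72, fell by 0.45 (SE 0.09, adjusted p = 0.020).

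The other subunits did not pass the test. COPB2, the beta prime subunit, differed by -0.24 (adjusted p = 0.086, limma) and COPE, the epsilon subunit, by -0.17. COPG2, which can take the place of COPG1 in the coat, was at 7.81 and 7.83 in control and at 7.81 and 7.78 in knockout arrays, a difference of -0.02 (95% confidence interval -0.21 to 0.17). The interval of COPG2 lies above that of COPG1 (-1.09 to -0.61), but whether these paralogs differ from each other was not tested. Of the zeta subunits COPZ1 differed by 0.13 and COPZ2, at a mean level of 5.59, by 0.11.

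Among the cargo receptors, 7 of 16 measured genes fell and 0 rose (median -0.23; 9 lower and 1 higher at an unadjusted p below 0.05 in limma). The largest falls were those of MCFD2 and LMAN1, which form one receptor: LMAN1 is a mannose-binding lectin, MCFD2 its calcium-binding partner, and together they export blood coagulation factors V and VIII. MCFD2 was at 10.79 and 10.90 in control and at 9.91 and 9.83 in knockout arrays, and fell by 0.97 (SE 0.08, adjusted p = 0.0022), or 1.96-fold. LMAN1, at 10.71 and 10.82 against 9.83 and 9.86, fell by 0.92 (SE 0.08, adjusted p = 0.0023), or 1.89-fold. The intervals of these partners overlap almost entirely (-1.19 to -0.76 and -1.13 to -0.71). Another MCFD2 probe set gave -0.31 and did not pass, while the other LMAN1 probe sets gave -1.22 and -1.21. SURF4, a receptor of broad cargo range, was at 10.82 and 10.73 in control and at 10.04 on both knockout arrays, falling by 0.73 (SE 0.08, adjusted p = 0.0036).

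The KDEL receptors catch resident chaperones in the Golgi by their last residues and send them back in COPI vesicles. KDELR3 was at 9.85 and 9.79 in control and at 9.10 and 8.94 in knockout arrays, and fell by 0.80 (SE 0.09, adjusted p = 0.0043). KDELR1, at 12.14 and 12.13 against 12.05 and 11.95, differed by -0.13 (95% confidence interval -0.33 to 0.07), an interval that lies above that of KDELR3 (-1.03 to -0.57). A dimmer KDELR3 probe set with a mean level of 6.49 differed by 0.18 and did not pass, against -0.80 and -0.48 for its bright ones. The gap between KDELR3 and KDELR1 thus depended on the probe set, and whether these receptors differ from each other was not tested.

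TMED proteins, also called p24 proteins, form mixed oligomers that cycle in both coats. TMED5 was at 11.54 and 11.67 in control and at 10.86 on both knockout arrays, falling by 0.75 (SE 0.08, adjusted p = 0.0040); its next brightest probe set gave -0.09, a dim one (mean level 5.60) gave -0.67 without passing (adjusted p = 0.11, limma), and averaging its 6 probe sets ended the call. TMED9 fell by 0.57 (SE 0.08, adjusted p = 0.0072) and TMED2 by 0.54 (SE 0.10, adjusted p = 0.014). TMED10 differed by -0.26 (adjusted p = 0.078, limma) and TMED4 by -0.13. TMED1 and TMED3 lay on the other side, at 0.25 (adjusted p = 0.10) and 0.19. TMED1 was at 8.29 and 8.15 in control and at 8.45 and 8.49 in knockout arrays and passed the test with an intensity trend or among brighter genes alone.

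The remaining receptors did not pass. LMAN2, a lectin like LMAN1, differed by -0.20 (adjusted p = 0.13, limma). The ERGIC proteins of the intermediate compartment differed by -0.03 (ERGIC1), 0.16 (ERGIC2) and 0.14 (ERGIC3).

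ARF4 and the SNAREs fell in all 4 cases (median -0.63). SEC22B, BET1 and STX5 sit in the SNARE bundle that fuses vesicles from the endoplasmic reticulum with the Golgi side, with STX5 on the target membrane. BET1 was at 9.07 and 9.17 in control and at 8.07 and 8.15 in knockout arrays, and fell by 1.01 (SE 0.08, adjusted p = 0.0020), or 2.01-fold, the smallest p of the members. STX5, at 6.83 and 6.66 against 5.94 and 6.05, fell by 0.76 (SE 0.10, adjusted p = 0.0057). SEC22B was at 9.25 and 9.32 in control and at 8.77 and 8.79 in knockout arrays, falling by 0.50 (SE 0.08, adjusted p = 0.0097). ARF4, a GTPase of the early Golgi, fell by 0.51 (SE 0.08, adjusted p = 0.0088), from 12.22 and 12.20 to 11.72 and 11.67. The groups overlapped in none of the 4 genes. Without control 2, only BET1 and STX5 of these 4 were called.

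Most members were read by several probe sets, 108 in all. Of the 13 genes that fell and had more than 1 probe set with a mean level of 8 or more, all such probe sets were negative in all 13 genes, and all fell in 9 of them when every probe set was fitted together. In that fit 39 of the 108 probe sets fell and 1 rose. The latter was a TMED4 probe set with a mean level of 5.87 (0.61, adjusted p = 0.035, limma), while the brightest TMED4 probe set gave -0.13. The share of all probe sets that fell is not given here, so the count of 39 is a description. With 1 probe set per gene, the same fit had 19 of the 43 members lower and 0 higher. Of all 19775 genes, 1696 fell and 1729 rose in it. For SEC24D the additional probe sets gave -3.67 and -1.76 from dim levels, and for SEC23B they gave -0.75 and -0.77.

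The promoters of the members were then searched for 3 motifs of the unfolded protein response. These were the endoplasmic reticulum stress elements ERSE and ERSE-II and the core of the unfolded protein response element, UPRE (TGACGTGG, or CCACGTCA on the other strand), which the stress factors XBP1 and ATF6 are known to bind; related factors of the CREB3 family bind similar letters. ERSE and ERSE-II both end in CCACG, which is also part of the UPRE core read on the other strand, so matches to these motifs can overlap. RefSeq windows of assembly GRCh38.p14, from 250 bases before to 50 after the transcription start, were matched by symbol for 39 of the 45 members, with 52 windows among them, and were read on both strands. SEC24D, ARF4, TMED4, TMED9, ERGIC1 and KDELR2 had no entry.

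The UPRE core was present in the windows of 9 of the 39 members (23.1%). Over all genes of the table it was present in 253 of 27305 (0.927%), or in 0.729% of all 35116 windows of this length. Windows of the members are rich in CG pairs, with a median of 26 against 14. Among windows with 20 or more CG pairs the share was 0.934% over all genes and 21.1% (8 of 38 windows) over the members. Whether the CG content bears on the share of members with the motif was not tested. Of the genes both in the table and on the array, 180 of 15384 (1.17%) held the UPRE core. Of those that fell, 42 of 1832 (2.29%) held it. Of the 18 members in the table that fell, 6 held it: SEC24A, KDELR3, COPA, STX5, COPB1 and SEC23A. The other 3, SEC16A, COPB2 and SEC16B, differed by -0.27, -0.24 and -0.07 and did not pass the test. ERSE and ERSE-II were found in 0 of the 39 members, and in 0.0916% and 0.0696% of all genes in the table. The matches are shown with 16 bases on either side, 5′ to 3′ on the strand of the gene, with the motif in capitals, because they are the sequence that these members share.
SEC24A, chr5:134648590-134648629, plus strand: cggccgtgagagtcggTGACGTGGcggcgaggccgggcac
KDELR3, chr22:38468034-38468073, plus strand: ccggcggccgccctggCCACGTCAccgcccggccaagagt
COPA, chr1:160343222-160343261, minus strand: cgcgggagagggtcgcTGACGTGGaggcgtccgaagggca
STX5, chr11:62832044-62832083, minus strand: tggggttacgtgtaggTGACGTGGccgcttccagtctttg
COPB1, chr11:14499836-14499875, minus strand: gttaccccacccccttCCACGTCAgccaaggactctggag
SEC23A, chr14:39103216-39103255, minus strand: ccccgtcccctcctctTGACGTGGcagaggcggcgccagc
SEC16A, chr9:136484702-136484741, minus strand: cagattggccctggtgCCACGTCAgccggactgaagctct
COPB2, chr3:139389627-139389666, minus strand: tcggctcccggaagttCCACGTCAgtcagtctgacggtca
SEC16B, chr1:177984292-177984331, minus strand: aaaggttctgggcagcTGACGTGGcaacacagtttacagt

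COPB2 held a second match further upstream, so that the 9 genes held 10 in all. Counted in bases from the transcription start, the first letter of the match lay at -48 in COPB1, -46 in KDELR3, -31 in SEC16B, -16 in STX5, -4 in SEC23A, 5 in COPA and 15 in SEC16A. The matches of COPB2 lay at -3 and -196 and that of SEC24A at -179. A match of letters is a description and does not show that a factor binds there in these cells. The whole window of SEC24A, the member with a match that fell most, is shown from chr5:134648535-134648834 on the plus strand, with the UPRE core in capitals.
SEC24A window: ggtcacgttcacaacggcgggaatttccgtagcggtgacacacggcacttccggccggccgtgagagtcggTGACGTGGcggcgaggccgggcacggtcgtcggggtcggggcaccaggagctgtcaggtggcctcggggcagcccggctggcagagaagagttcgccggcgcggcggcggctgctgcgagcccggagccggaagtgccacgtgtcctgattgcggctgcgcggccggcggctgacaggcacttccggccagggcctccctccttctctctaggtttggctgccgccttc

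**Figure D4:**
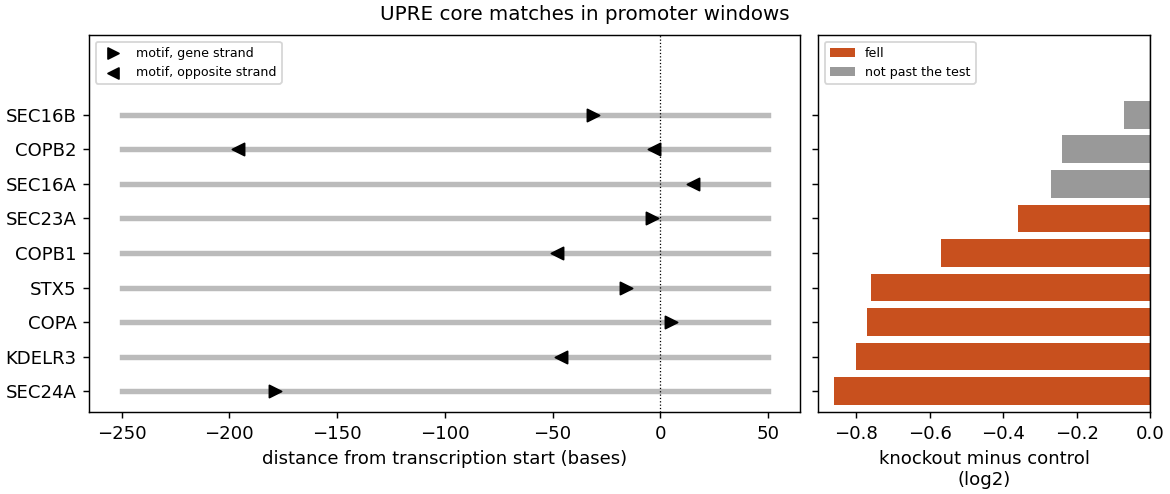
Left, position of each UPRE core match (x axis, bases from the transcription start) in the promoter windows of the 9 genes that hold one; arrowheads give the strand. Right, the knockout minus control difference (log2) of the same genes, from -0.86 for SEC24A to -0.07 for SEC16B, with the 6 that fell in orange.

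Most of the listed factors known to act on genes of the secretory pathway were lower as well. The list was chosen with earlier results of these data known, so its count is a description. Of 10 measured, 7 fell and 0 rose (8 lower and 0 higher at an unadjusted p below 0.05 in limma). Over all genes 11.5% fell. XBP1 was at 10.58 and 10.66 in control and at 9.41 and 9.35 in knockout arrays, falling by 1.24 (SE 0.08, adjusted p = 0.0010), and ATF6 fell by 0.80 (SE 0.08, adjusted p = 0.0031). CREB3L2, a membrane-bound factor known to raise SEC23A in cartilage, was at 9.72 and 9.62 against 8.26 and 8.23, and fell by 1.43 (SE 0.08, adjusted p = 0.00074). CREB3L1 fell by 0.58 (adjusted p = 0.016; 0.063 with the mean of its probe sets), ATF4 fell by 0.62 and DDIT3 fell by 2.71. BHLHA15, a regulator of secretory cells, fell by 4.34. ATF6B (-0.36), CREB3 (0.07) and CREB3L4 (-0.06) did not pass the test. Whether any of these factors acts on the vesicle genes here was not tested, and XBP1 and ATF6 act through splicing and cleavage that these values do not read.

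Other genes of transport between the endoplasmic reticulum and the Golgi moved in both directions, with more falls than rises. Of 84 measured genes outside the members, 25 fell and 8 rose, with a median of -0.10. Over all genes 11.5% fell and 12.4% rose, and 20.7% of those with a mean log2 level of 8 or more fell. This list too was chosen with earlier results of these data known. No test compared its counts with those of the members or of all genes. The share of promoters of these other transport genes with the UPRE core was 5.56% (4 of 72 in the table). Among exit site and cargo genes 5 of 20 fell and 2 rose. MIA3, also called TANGO1, which loads bulky cargo such as collagen into COPII carriers, was at 9.32 and 9.09 in control and at 8.09 and 8.02 in knockout arrays and fell by 1.15 (SE 0.10, adjusted p = 0.0024). Its partner MIA2 fell by 1.34 (SE 0.09, adjusted p = 0.0011), but a probe set specific to MIA2 gave -0.01 (adjusted p = 0.98).

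Among tethers, which catch vesicles before fusion, 10 of 31 fell and 2 rose. GOLGA5, a golgin, was at 10.39 on both control arrays and at 9.28 and 9.20 in knockout arrays, falling by 1.14 (SE 0.08, adjusted p = 0.0011) and called in all 12 alternatives. Both rises were subunits of the TRAPP complex, of which 14 were measured: TRAPPC2L rose by 1.10 (SE 0.09, adjusted p = 0.0019), from 8.69 and 8.65 to 9.69 and 9.85 (0.55 with the mean of its probe sets), and TRAPPC1 by 0.79 (SE 0.12, adjusted p = 0.010). TRAPPC2, TRAPPC6A and TRAPPC12 fell, but with the mean of probe sets TRAPPC2 was at -0.10 (adjusted p = 0.57) and TRAPPC12 at -0.12 (adjusted p = 0.44), and TRAPPC12 was also lost under median scaling (0.061) and with all probe sets fitted (0.081). Of the COG tethers 2 of 8, COG3 and COG5, fell and 0 rose, also at an unadjusted p below 0.05 (limma).

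Among the GTPases and their controllers 4 of 15 fell and 4 rose. ARFGAP3, which ends the ARF cycle on COPI vesicles, fell by 1.09 (SE 0.12, adjusted p = 0.0040), from 10.96 and 11.08 to 10.07 and 9.78. RAB1B, which directs vesicles to the Golgi, rose by 0.62 (SE 0.08, adjusted p = 0.0058) and ARF3 by 0.54 (SE 0.08, adjusted p = 0.0087); ARF3 was not called under reference gene scaling (0.24, adjusted p = 0.052). Of 18 further SNAREs and fusion factors 6 fell and 0 rose, where 2 were higher and 6 lower at an unadjusted p below 0.05 (limma).

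**Figure D5:**
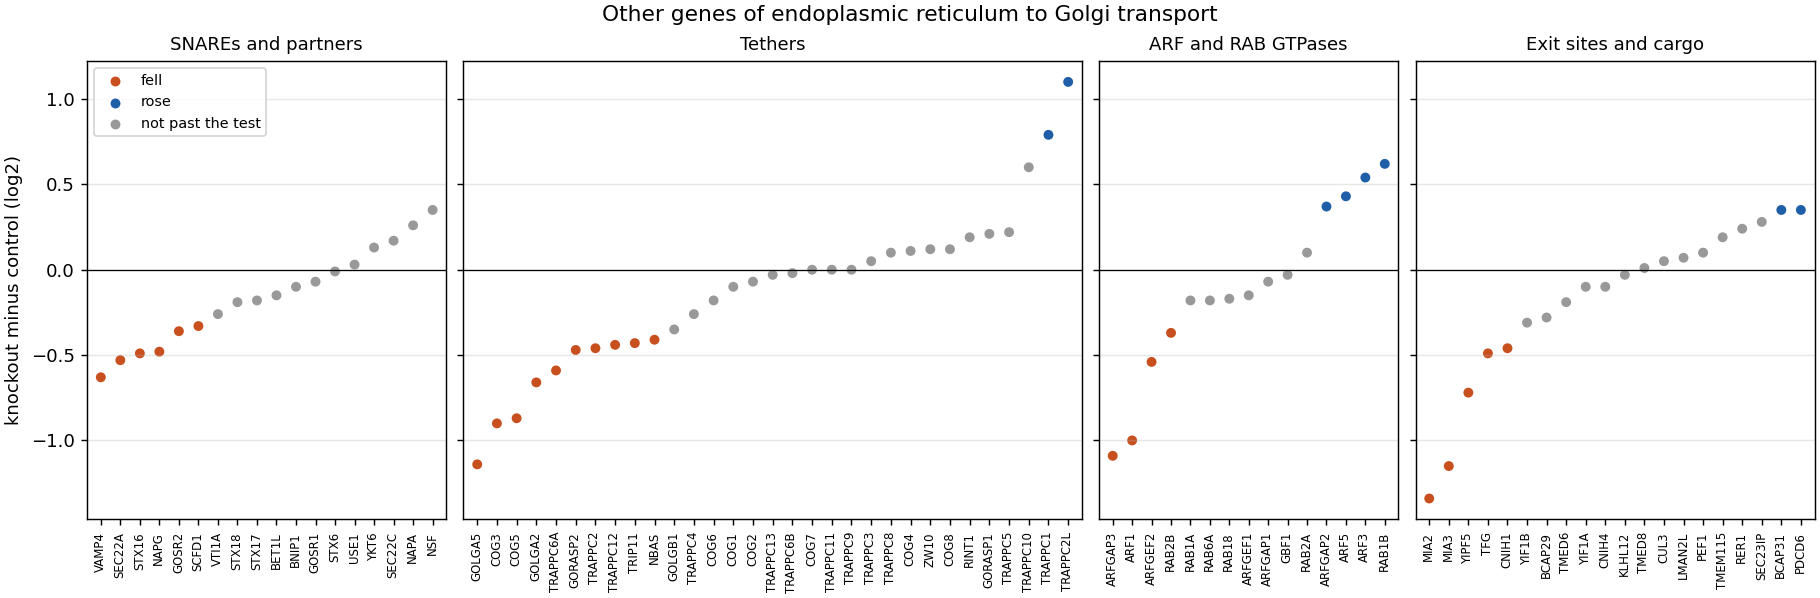
Knockout minus control difference (y axis, log2) of 84 other transport genes in 4 groups, ordered by size. Orange genes fell (25) and blue genes rose (8) at an adjusted p below 0.05 in limma; the extremes are MIA2 at -1.34 and TRAPPC2L at 1.10.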

How the data were processed

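The authors deposited log2 intensities of 54613 probe sets on 4 arrays. They were made with RMA and affy per the submitters' processing notes; versions are not given in the sources used here. Their range (1.64 to 14.16) showed the log2 scale. Quantile normalization inside RMA makes each difference relative to other transcripts, and detection calls were not used here. The number of arrays limits precision.

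Gene names came from the platform annotation, updated to RefSeq symbols (GRCh38.p14): 41091 had 1 symbol, 1801 several, 11721 none listed. The brightest single-gene probe set stood for each of 19775 genes. The comparison used limma 3.58.1 under R 4.3.3 (lmFit, eBayes, 2 residual and 3.27 prior degrees of freedom), adjusted over all genes by Benjamini and Hochberg; the fit was tested on simulated data. Alternatives changed the probe set, filter, prior, scale, block or arrays.

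The members and lists were chosen with earlier results of these data known. Named genes were the members, PRMT6, the regulators, and the 4 largest rises and falls of the other transport genes. Further genes (COG3, COG5, TRAPPC2, TRAPPC6A, TRAPPC12, SCFD1) were chosen after their values were seen, as was the level of 8. No protein sequence was used here.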

Additional observations from a re-analysis of the deposited data

How the results depend on the processing

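Of 513 values of single members under the alternatives, 427 stayed on their side of the threshold, 14 of them, none of a called member, with a changed sign, 59 lost the call, 52 of them with an array left out, 27 gained one and 0 called members reversed. Reference gene scaling gave 1112 rises and 9495 falls over all genes, 36 falls among the members (13 COPII, 7 COPI, 12 cargo receptors), and 3 rises and 56 falls among the other transport genes; the arrays alone do not say which scale is right. With brighter genes alone or an intensity trend 1 member, the cargo receptor TMED1, rose and 13 other transport genes did. The members' median was -0.31 with the mean of probe sets, -0.40 among brighter genes, -0.64 under reference gene scaling and -0.29 under median scaling. The other transport genes had 4 rises with all probe sets fitted. SCFD1 was called at -0.33 with its brightest probe set (adjusted p = 0.03, limma) but was 0.07 with its gene-specific probe set. The cause of these changes was not tested.

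With 1 array left out, all genes ranged from 154 to 1371 rises and 354 to 1258 falls, members from 0 to 17 falls, COPII from 0 to 4, COPI from 0 to 3, cargo receptors from 0 to 7, ARF4 and SNAREs from 0 to 3, other transport genes from 1 to 4 rises and 2 to 12 falls, and the members' median from -0.33 to -0.30. With the replicate number as a block, 20 members fell and 5 other transport genes rose; deviations of same-numbered arrays correlated at 0.052 across genes, and with 2 pairs the labels give no sign that the numbers pair the samples.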
